A study of Mus musculus with 12 samples.

Results

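Untreated osteoclasts were set against untreated macrophages, the 2 cell types of the series as they stood without lipopolysaccharide (LPS). The comparison used the 3 libraries of untreated osteoclasts and the 3 of untreated macrophages, 6 of the 12 libraries of the series, and covered 11335 genes of the 54532 in the deposited table, those at 1 FPKM or more in at least 3 of the 12 libraries. FPKM is the number of sequenced fragments assigned to a gene per kilobase of its exons, scaled for library depth. All cells came from the marrow of femurs and tibiae of wild-type mice, expanded as bone marrow-derived macrophages (BMDMs) with CMG, a culture supplement that provides the growth factor M-CSF (macrophage colony-stimulating factor). The macrophage group was kept in CMG without RANKL. The osteoclast group received receptor activator of NF-kappa-B ligand (RANKL) as well, at 100 ng/mL in the sample labels, and both groups were sampled on day 5 with no LPS. The remaining 6 libraries were the same 2 cell types given 100 ng/mL LPS for 3 h and serve here as a second comparison of osteoclasts with macrophages. They also count in the filter on FPKM and in the estimate of the spread behind the p-values. The labels give neither age nor sex of the mice and do not say whether libraries of one group came from separate mice or cultures, so p-values measure only the spread between these libraries, which may be technical. The macrophage group is a population grown on M-CSF in a dish, and the osteoclast group is the whole RANKL culture, with any cells that had not fused.

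Osteoclasts are the cells that resorb bone. They form when macrophage-lineage precursors meet M-CSF and RANKL: RANK signals through TRAF6, and immune receptors that carry an ITAM motif through the adaptors DAP12 and FcR-gamma supply calcium signals, which together activate the transcription factor NFATc1. The precursors fuse into giant multinucleated cells, attach to bone through a ring of actin-rich podosomes, pump protons into the sealed space with a vacuolar ATPase and release cathepsin K, which digests collagen. Macrophages grown on M-CSF alone keep scavenger, Fc, complement and Toll-like receptors and go on dividing.

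Assigned reads recovered from the FPKM values ran from 16465403 to 19051816 per library, and 9728 to 10301 genes reached 1 FPKM. The first principal component of the 6 libraries held 96.6% of the variance and separated the cell types. Reads from the mitochondrial genome made up 1.57% ± 0.06 (SD, n = 3) of the total in macrophages and 5.59% ± 0.28 in osteoclasts. The cell type labels were checked against marker lists. The 12 osteoclast markers summed to 17.0 to 20.8 FPKM in the macrophage libraries and 30055 to 31515 in the osteoclast libraries. The 12 macrophage markers summed to 13621 to 13685 FPKM in macrophages and 2882 to 3338 in osteoclasts. Of these 12, 11 were called lower and *Cd68*, which osteoclasts also express, higher. Without *Cd68* the sums were 12943 to 13001 FPKM in macrophages and 1487 to 1891 in osteoclasts. In bulk RNA, fewer cells of a type and less of a transcript per cell cannot be told apart, here and in every result below. Markers of osteoblasts and stromal cells summed to 27.8 to 38.5 FPKM in macrophages, with *Col1a1* (type I collagen) at 19.9, and to 0.643 to 0.986 in osteoclasts. Neutrophil markers summed to 5.70 to 8.57 and 0.247 to 0.699 FPKM, with *Ly6g* and *Elane* at 0 in both groups, and T or NK cell markers to 0.0461 to 0.182 and 3.73 to 3.96. Of the latter, *Trac*, the constant region of the T cell receptor alpha chain, was called higher and held nearly the whole sum, at 0.0461, 0.182 and 0.144 FPKM against 3.82, 3.73 and 3.96, while *Cd3d*, *Cd3g*, *Cd8a*, *Ncr1* and *Nkg7* were at 0 in both groups. Monocyte, dendritic cell, B cell, mast cell, eosinophil, erythroid, endothelial and progenitor markers each summed to less than 3 FPKM in every untreated library. Adipocyte markers summed to 18.6 to 19.3 and 11.7 to 12.1 FPKM, with *Adipoq*, *Plin1* and *Cidec* at 0 in both. Megakaryocyte markers summed to 6.23 to 6.73 FPKM in macrophages and 0.877 to 1.38 in osteoclasts.

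Differences were tested with limma on log2(FPKM + 1), a scale that understates the change of genes at low levels, and a gene was called at a Benjamini-Hochberg adjusted p below 0.05, taken over all 11335 genes. Log2 differences below are osteoclasts minus macrophages on that scale, and folds are ratios of the mean FPKM. The background is broad: 77.8% of the genes tested were called, 38.8% higher and 39.0% lower in osteoclasts, and 81.4% had libraries that did not overlap between the cell types. Calls with a log2 difference of at least 1 were rarer, 13.4% of genes higher and 14.3% lower. The median log2 difference over all genes tested was 0.00, a property of the scaling, which sets the typical gene equal between libraries. On TPM, where each library is scaled to the same total instead, the median was -0.38 and 29.9% of the calls were higher, against 49.9% here. Counts over a list of genes below are to be read against these shares. A gene under 1 FPKM in one cell type could pass the filter through the other, which leans its call, so counts and medians over lists with untested members describe the genes that passed and support nothing about the list.

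**Figure D1:**
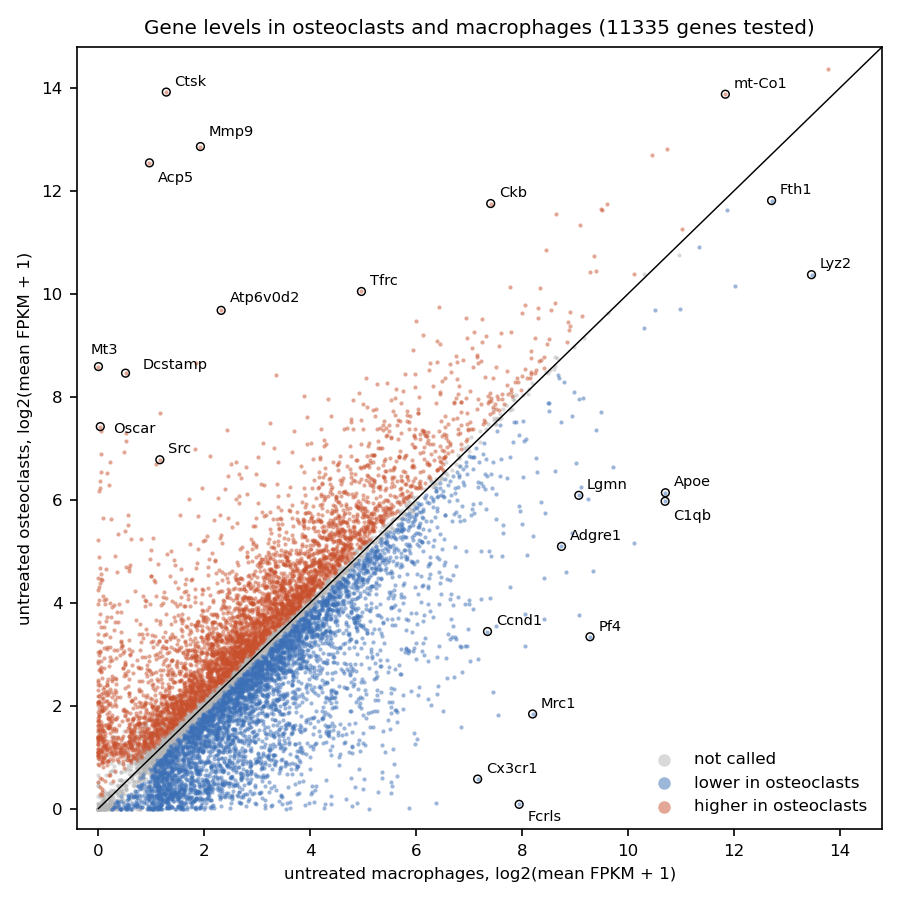
Mean level of each of the 11335 genes tested in untreated macrophages (horizontal axis) and untreated osteoclasts (vertical axis), both as log2(mean FPKM + 1), with 3 libraries a group; red points were called higher in osteoclasts, blue points lower, grey points were not called, and the line marks equal levels. *Ctsk*, *Mmp9* and *Acp5* stand far above the line, and *Fcrls*, *Cx3cr1* and *Mrc1* far below it.

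The plot of mean levels shows a body of genes along the line of equal levels and 2 arms away from it. The arm above was led by products of the resorbing cell. *Mt3* (chr8:94152607-94154146, + strand, GRCm38), a metallothionein that binds zinc and copper, was at 0 FPKM in all 3 macrophage libraries and at 370, 394 and 388 FPKM in the osteoclast libraries. Against a floor of 3 reads over the macrophage group, that is at least 9411-fold higher in osteoclasts (log2 difference 8.59, SE 0.05, limma adjusted p = 3.4e-17). *Akr1c18* (chr13:4132615-4150654, - strand), a steroid-metabolising reductase, was at 0.107, 0 and 0 FPKM in macrophages and at 161, 157 and 163 in osteoclasts, a log2 difference of 7.28 (SE 0.08). *Siglec15*, a sialic acid receptor that pairs with DAP12, was at 0.261, 0.405 and 0.622 FPKM against 143, 164 and 159, 362-fold higher. *Slc9b2*, a sodium/proton exchanger of osteoclasts, was at 0.487, 0.325 and 0.515 FPKM against 141, 143 and 137, 318-fold higher. The groups lay far apart for each of these genes, with no osteoclast library within 100-fold of any macrophage library. *Gm20056*, a processed pseudogene at 2.57 ± 0.589 FPKM in macrophages and 403 ± 18.7 in osteoclasts (SD, n = 3), also ranked among the 12 highest differences. Its level is uncertain, since a processed pseudogene can share reads with the gene it was copied from, and sharing was not tested here.

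At the other end, *Fcrls* (chr3:87250758-87263738, - strand), an Fc receptor-like scavenger receptor, was at 255, 244 and 238 FPKM in macrophages and at 0.0464, 0.0507 and 0.0756 in osteoclasts, 4265-fold lower (log2 difference -7.86, SE 0.05). *Pf4*, a platelet-type chemokine also made by macrophages, was at 593, 680 and 595 FPKM against 10.1, 9.11 and 8.08. *Igfbp4*, which binds insulin-like growth factors, was at 179, 192 and 184 FPKM against 2.43, 2.49 and 2.60. *F13a1*, the clotting factor XIII A chain, was at 54.7, 61.4 and 55.9 FPKM against 0, 0.0263 and 0. *Acta2*, smooth muscle actin, was at 53.2, 42.6 and 41.5 FPKM against 0.213, 0.631 and 0.198, and *Thbs1*, the matrix protein thrombospondin 1, at 52.1, 44.4 and 39.5 against 0.268, 0.136 and 0.310. These are genes of several cell types: *Acta2*, *Thbs1* and *Igfbp4* are also made by stromal cells, whose markers were at 27.8 to 38.5 FPKM in macrophages and under 1 in osteoclasts, and *Pf4* by megakaryocytes, whose *Ppbp* was at 5.86 against 0.0330. The part of those cells in the differences was not tested. *F13a1* and *Thbs1* each overlap exons of an opposite-strand gene, and the sources used here do not say whether counting used strand, so their values are uncertain to that extent. The same holds for *Acp5*, *Cx3cr1*, *Selenop* and other genes marked below as overlapping.

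The most abundant transcripts changed places. The 10 genes with the highest mean FPKM took 20.3% ± 0.66 of all FPKM in macrophages and 26.0% ± 0.36 in osteoclasts (SD, n = 3), and 3 genes were in both groups' first 10. *Lyz2*, the macrophage lysozyme, was at 11358, 11352 and 11290 FPKM in macrophages and 1498, 1097 and 1385 in osteoclasts, 8.54-fold lower (log2 difference -3.11, SE 0.20). *Ckb*, brain-type creatine kinase, which buffers ATP, was at 159, 175 and 172 FPKM in macrophages and 3333, 3565 and 3487 in osteoclasts, 20.5-fold higher (log2 difference 4.35, SE 0.06). *Tmsb4x*, the actin-binding thymosin beta 4, was at 4182 ± 21.5 FPKM against 1137 ± 15.4, and *Actb*, beta-actin, at 2596 ± 71.1 against 1921 ± 39.4. The gene with the highest value in both groups, *Gm23935*, is a 57-base small RNA gene that held 5.47% ± 0.79 of the FPKM in macrophages and 6.16% ± 0.67 in osteoclasts. Its call as higher was lost without the filter on low values, on TPM and after quantile scaling.

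The resorption list held the enzymes, channels and transporters with which the cell dissolves mineral and digests matrix. All 12 of its genes were tested and all 12 were called higher, with a median log2 difference of 3.84. In 2 of the 12, *Acp5* and *Car2*, the macrophage mean was under 1 FPKM, and in the other 10 it was 1 FPKM or more. *Ctsk* (chr3:95499256-95509362, + strand), the collagen-digesting protease cathepsin K, was at 2.65, 1.01 and 0.624 FPKM in macrophages and 15204, 15864 and 15556 in osteoclasts (log2 difference 12.73, SE 0.23, limma adjusted p = 2.8e-13). *Acp5*, tartrate-resistant acid phosphatase, was at 1.72, 0.775 and 0.354 FPKM in macrophages and 5773, 6132 and 6060 in osteoclasts. The first macrophage library held the highest value of both genes among the macrophages, still far below any osteoclast library. *Car2*, the carbonic anhydrase that supplies protons, was at 0.0713, 0.0176 and 0 FPKM against 119, 114 and 119 (log2 difference 6.84, SE 0.06). *Mmp14*, a membrane-bound collagenase, was at 2.87, 2.54 and 2.24 FPKM against 123, 126 and 131, 49.7-fold higher. The chloride channel *Clcn7*, which balances the charge of secreted protons, was at 20.3, 18.8 and 18.9 FPKM in macrophages and 236, 258 and 250 in osteoclasts. Its partner subunit *Ostm1* differed less, at 9.16 ± 0.257 FPKM against 30.6 ± 0.355 (log2 difference 1.64, SE 0.06), and overlaps a gene on the opposite strand. *Slc4a2*, the bicarbonate/chloride exchanger of the opposite membrane, was at 8.99 ± 0.223 FPKM against 128 ± 5.36 and overlaps likewise. *Snx10*, a sorting nexin needed for the acid-secreting membrane, was at 7.63 ± 0.366 FPKM against 137 ± 4.83, 17.9-fold higher. None of the 12 genes had overlapping groups.

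**Figure D2:**
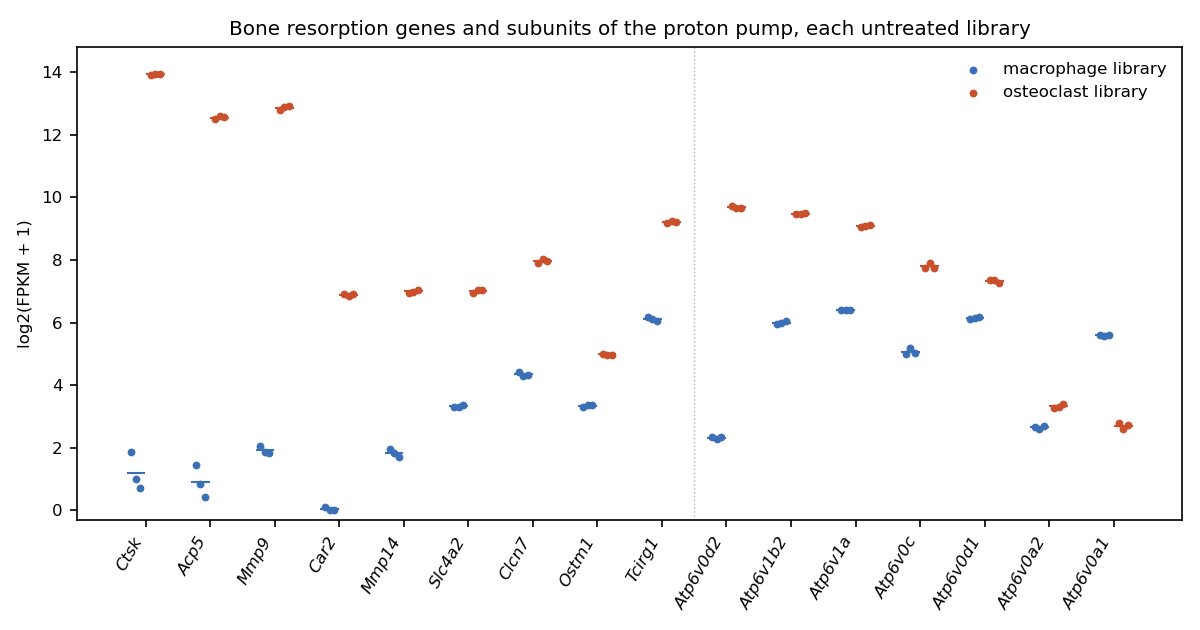
Level of 9 resorption genes (left) and 7 subunits of the vacuolar proton pump (right, after the dotted line) in each untreated library, as log2(FPKM + 1); each point is 1 library and each short line the mean of 3. Osteoclast libraries lie above macrophage libraries for every gene drawn except *Atp6v0a1*, where they lie below.

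The vacuolar proton pump is built from subunits that often exist in several forms, and the form decides where the pump goes. Of 25 subunit genes listed, 18 were tested, 17 were called higher and 1 lower, with a median log2 difference of 2.56. The 7 not tested were tissue-restricted forms at low values, among them *Atp6v1b1* and *Atp6v0a4* of kidney. *Atp6v0d2* (chr4:19876841-19922605, - strand), the d subunit of osteoclasts, was at 4.10, 3.82 and 4.03 FPKM in macrophages and 840, 807 and 814 in osteoclasts, 206-fold higher (log2 difference 7.36, SE 0.06). The common d subunit *Atp6v0d1* was at 69.5 ± 1.28 FPKM against 160 ± 6.98, 2.30-fold higher. *Atp6v1b2*, the B subunit of the catalytic head, was at 62.7 ± 2.64 FPKM against 713 ± 8.78, 11.4-fold higher, and *Atp6v1a*, the A subunit, at 83.4 ± 0.517 against 539 ± 11.1. *Tcirg1*, the a3 subunit of the osteoclast pump, was at 72.1, 68.6 and 65.3 FPKM in macrophages and 578, 603 and 585 in osteoclasts. *Atp6v0a1*, the a1 subunit, went the other way, at 48.0, 46.8 and 47.3 FPKM against 5.92, 5.11 and 5.56, 8.56-fold lower (log2 difference -2.89, SE 0.07), and was the exception among the 18. *Atp6v0a2* was called higher by a small difference, 5.32 ± 0.216 FPKM against 9.03 ± 0.430. Per length, *Tcirg1* was therefore 0.53 ± 0.06 log2 units above *Atp6v0a1* in macrophages and 6.50 ± 0.12 above it in osteoclasts (SD, n = 3 libraries).

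Lysosome and pump genes can carry the CLEAR element, read by the transcription factors TFEB, TFE3 and MITF. The letters TCACGTGA, which read the same on both strands, were found in 2.11% of the 8442 promoters of genes tested (RefSeq, GRCm38.p6, 250 bases before to 50 after the start). They were found in 3 of 12 pump promoters (*Atp6v0d1*, *Atp6v0e* and *Atp6v1a*), in 2 of 30 promoters of the lysosomal list (*Mcoln1* and *Gla*) and in 2.13% of the promoters of genes called higher. The promoter of *Gla*, the lysosomal alpha-galactosidase, is shown because it holds the element at 2 places, in capitals, starting 228 and 195 bases before the start of the gene (chrX:134601169-134601255, - strand).
Gla: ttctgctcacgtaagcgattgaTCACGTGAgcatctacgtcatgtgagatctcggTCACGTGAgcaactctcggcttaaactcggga
*Gla* itself was at 27.0 ± 0.761 FPKM in macrophages and 43.6 ± 1.70 in osteoclasts (log2 difference 0.67, SE 0.04). A match is a description of the letters and says nothing of binding.

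Cell fusion genes had no common direction. Of 12 tested, of 15 listed, 8 were called higher and 4 lower, and 3 of the 8 were under 1 FPKM in macrophages. *Dcstamp* (chr15:39745930-39760938, + strand), the transmembrane protein that precursors need to fuse, was at 0.421, 0.383 and 0.472 FPKM in macrophages and 346, 360 and 348 in osteoclasts, 826-fold higher. Its relative *Ocstamp* was at 0.165, 0.186 and 0.135 FPKM against 103, 105 and 107, 648-fold higher. Among the 4 that were lower, the tetraspanin *Cd81* was at 83.2 ± 2.30 FPKM against 6.71 ± 1.07, while the related *Cd9* was higher, at 114 ± 5.95 against 208 ± 1.92. The hyaluronan receptor *Cd44* was also higher, at 53.8 ± 0.441 FPKM against 111 ± 1.66. *Adam8*, a membrane protease linked to fusion, was at 345 ± 15.3 FPKM against 52.8 ± 1.18 (log2 difference -2.69, SE 0.05). *Cd9*, *Cd81* and *Adam8* each overlap a gene on the opposite strand.

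The receptors and adaptors that pass the RANKL signal showed no common direction. Of 18 tested, 10 were called higher, 6 lower and 2 not, with a median log2 difference of 0.28. On TPM the list had 7 higher and 9 lower calls. *Tnfrsf11a*, which encodes RANK, was at 35.3, 36.7 and 36.4 FPKM in macrophages and 55.0, 55.6 and 58.5 in osteoclasts, 1.56-fold higher. The kinase *Syk*, which docks on ITAM motifs, was at 22.0 ± 0.804 FPKM against 51.5 ± 2.61. The receptor *Oscar*, which signals through FcR-gamma, differed far more, at 0.0234, 0 and 0.0486 FPKM against 165, 172 and 175 (log2 difference 7.39, SE 0.05). *Calcr*, the calcitonin receptor, had no read in macrophages and was at 20.7, 20.4 and 22.4 FPKM in osteoclasts, at least 1904-fold higher. The adaptors themselves were abundant in both cell types. *Fcer1g*, which encodes FcR-gamma, was lower in osteoclasts, at 722 ± 24.5 FPKM against 207 ± 5.02, and *Tyrobp*, which encodes DAP12, was not called, at 792 ± 20.1 against 787 ± 26.5 (log2 difference -0.01, SE 0.06), although it was called lower on TPM and after quantile scaling. *Trem2*, a DAP12-coupled receptor, was at 125, 123 and 126 FPKM in macrophages and 10.7, 9.94 and 10.0 in osteoclasts, 12.2-fold lower.

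Transcription factors with a role in osteoclasts were called higher for 13 of 20 genes tested and lower for 7, with a median log2 difference of 0.89. *Nfatc1*, the master regulator, was at 7.01, 6.97 and 7.13 FPKM in macrophages and 114, 114 and 114 in osteoclasts, 16.1-fold higher (log2 difference 3.83, SE 0.04). *Fosl2*, an AP-1 subunit, was at 5.53, 5.33 and 5.46 FPKM against 81.2, 87.6 and 84.2. *Jdp2*, another AP-1 family member, was at 9.23 ± 1.10 FPKM against 345 ± 13, 37.4-fold higher, and overlaps a gene on the opposite strand. *Prdm1*, which represses inhibitors of osteoclast formation, was at 2.18, 1.89 and 2.25 FPKM against 19.5, 19.4 and 19.7. *Ppargc1b*, a coactivator of mitochondrial genes, was at 1.54 ± 0.0243 FPKM against 22.0 ± 2.13, 14.2-fold higher. The factors that read the CLEAR element were lower in this comparison: *Tfeb* at 8.81 ± 0.474 FPKM against 3.68 ± 0.260, *Tfe3* at 15.8 ± 0.319 against 5.71 ± 0.155 and *Mitf*, by the smallest difference of the 3, at 12.7 ± 0.624 against 10.1 ± 0.531. Their relative *Tfec* was higher, at 1.32 ± 0.0899 FPKM against 9.07 ± 0.467. *Myc* was lower, at 22.8, 25.2 and 22.9 FPKM in macrophages against 9.69, 9.93 and 9.10.

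Transcription factors of the macrophage were lower almost throughout. Of 19 tested, 18 were called lower and 1 higher (*Nr1h3*, whose call was lost on TPM), with a median log2 difference of -2.71. In 2 of the 18 the osteoclast mean was under 1 FPKM. *Irf8*, which keeps macrophage genes on, was at 23.4, 21.4 and 23.1 FPKM in macrophages and 1.16, 1.08 and 1.01 in osteoclasts, 20.9-fold lower. *Maf* was at 43.5 ± 0.881 FPKM against 2.31 ± 0.197. *Bcl6*, a repressor of *Nfatc1* target genes, was at 19.6 ± 0.247 FPKM against 2.03 ± 0.367. The inhibitors of differentiation moved together: *Id1* was at 124, 118 and 100 FPKM in macrophages and 2.20, 1.73 and 2.08 in osteoclasts, 56.9-fold lower, *Id2* was 9.57-fold lower and *Id3* 7.73-fold lower. *Cebpa*, a myeloid factor, was at 181 ± 9.05 FPKM against 10.7 ± 0.797, and *Lyl1* at 39.7 ± 3.05 against 0.639 ± 0.102. *Maf*, *Bcl6*, *Cebpa* and *Lyl1* overlap genes on the opposite strand.

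Genes of podosomes and the actin ring divided nearly evenly, with 15 of 28 tested called higher, 12 lower and 1 not, and a median log2 difference of 0.43. *Src*, the kinase without which osteoclasts form no ruffled border, was at 1.30, 1.05 and 1.35 FPKM in macrophages and 104, 112 and 110 in osteoclasts, 88.2-fold higher (log2 difference 5.62, SE 0.07). *Cttn*, the actin-branching scaffold cortactin, was at 1.73, 1.71 and 1.30 FPKM against 30.2, 33.0 and 29.9, 19.6-fold higher. *Vcl*, vinculin, was at 5.19 ± 0.232 FPKM against 25.4 ± 1.02, and the GTPase *Rac2* at 62.5 ± 0.512 against 347 ± 5.01. Lower were the paxillin relative *Lpxn*, at 81.6, 88.1 and 87.7 FPKM against 8.60, 6.54 and 8.5, the actin-elongating *Evl*, at 45 ± 1.36 against 2.94 ± 0.630, and the bundling protein *Fscn1*, at 3.84 ± 0.648 against 0.204 ± 0.0474. *Vcl* and *Evl* overlap genes on the opposite strand.

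Integrins, the receptors by which cells hold their matrix, had no common direction. Of 16 subunits tested, 7 were called higher, 8 lower and 1 not, with a median log2 difference of -0.24. *Itgb3*, the beta subunit of the vitronectin receptor of osteoclasts, was at 1.22, 1.20 and 0.951 FPKM in macrophages and 101, 100 and 108 in osteoclasts, 91.7-fold higher. Its alpha partner *Itgav* was already present in macrophages, at 46.5 ± 0.720 FPKM, and was 4.50-fold higher in osteoclasts. Of other beta subunits that pair with that alpha subunit, *Itgb1* was called higher, by 0.54 (0.13 on TPM), and *Itgb5* fell from 139, 133 and 129 FPKM to 13.5, 14.1 and 13.3. *Itga2*, a collagen receptor subunit, was at 0.0242, 0 and 0 FPKM against 15.2, 15.1 and 16.3. *Itgb7*, better known from lymphocytes, was at 0.950, 1.27 and 0.940 FPKM against 35.4, 38.8 and 36.8. The laminin receptor subunit *Itga6* was at 94.9 ± 4.52 FPKM in macrophages and 4.80 ± 0.436 in osteoclasts, and the leukocyte subunits *Itgal* and *Itgam* were 9.81-fold and 4.12-fold lower. The leukocyte subunit *Itgax* was higher, at 1.31 ± 0.267 FPKM against 7.63 ± 0.0758, and their shared beta partner *Itgb2* was higher by 0.31, a direction that turned on TPM and after quantile scaling.

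The lysosomal list of hydrolases and membrane proteins was called higher for 24 of 36 genes and lower for 12, with a median log2 difference of 0.68. On TPM, 20 were higher and 14 lower. *Arsb*, which removes sulfate from matrix glycosaminoglycans, was at 12.5, 11.9 and 11.3 FPKM in macrophages and 152, 163 and 166 in osteoclasts, 13.5-fold higher, and overlaps a gene on the opposite strand. *Smpd1*, acid sphingomyelinase, was at 8.26, 7.76 and 6.23 FPKM against 75.0, 78.1 and 80.2, 10.5-fold higher. Proteins of the lysosome membrane went both ways. Lower were *Lamp2*, at 53.1 ± 1.25 FPKM against 15 ± 0.848, *Scarb2*, also known as LIMP-2, at 27.3 ± 0.652 against 4.71 ± 0.236 and *Lamp1*, which overlaps an opposite-strand gene, at 517 ± 13 against 104 ± 3.44. Higher were the tetraspanin *Cd63*, at 82.3 ± 1.93 FPKM against 234 ± 2.94, the glycoprotein *Cd68*, at 670 ± 30.8 against 1402 ± 43, and the calcium channel *Mcoln1*, at 5.48 ± 0.263 against 9.44 ± 0.323. The asparaginyl protease *Lgmn* was at 524, 557 and 532 FPKM against 66.0, 65.1 and 69.9, 8.03-fold lower.

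Cathepsin K stood apart from its family. Of 11 cathepsins tested, 4 were called higher and 7 lower, with a median log2 difference of -0.81. *Ctsz* was at 266 ± 7.81 FPKM in macrophages and 883 ± 8.81 in osteoclasts. *Ctss*, an elastin- and antigen-processing cathepsin, was at 672, 677 and 666 FPKM against 183, 149 and 157, 4.13-fold lower. *Ctsc*, which activates granule proteases, was at 108, 106 and 106 FPKM against 10.2, 7.77 and 8.63, 12-fold lower. The abundant *Ctsd* fell from 2028 ± 45.5 FPKM to 830 ± 2.58 and *Ctsb* from 1453 ± 43.1 to 828 ± 6.91. Summed over the cathepsins the level still rose, from between 4753 and 4955 FPKM in the macrophage libraries to between 18268 and 18924 in the osteoclast libraries, of which *Ctsk* alone held 15541 ± 330. In the metalloprotease list, 3 of 17 tested, of 23 listed, were called higher, 13 lower and 1 not, with a median of -1.32. In 5 of the 13 the osteoclast mean was under 1 FPKM, so the count describes only the genes that passed the filter. *Mmp9*, at 7460 ± 295 FPKM against 2.80 ± 0.301 in macrophages, held most of the sum in osteoclasts. *Timp1*, an inhibitor of metalloproteases, was at 14.7, 12.2 and 10.4 FPKM against 0.427, 0.133 and 0.0663 (log2 difference -3.47, SE 0.19). *Mmp13* was at 4.78 ± 0.379 FPKM against 0.258 ± 0.0125, 18.6-fold lower. *Timp1* and *Mmp13* are also stromal genes, and *Col1a1* was at 19.9 FPKM in the macrophages; the part of stromal cells was not tested.

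**Figure D3:**
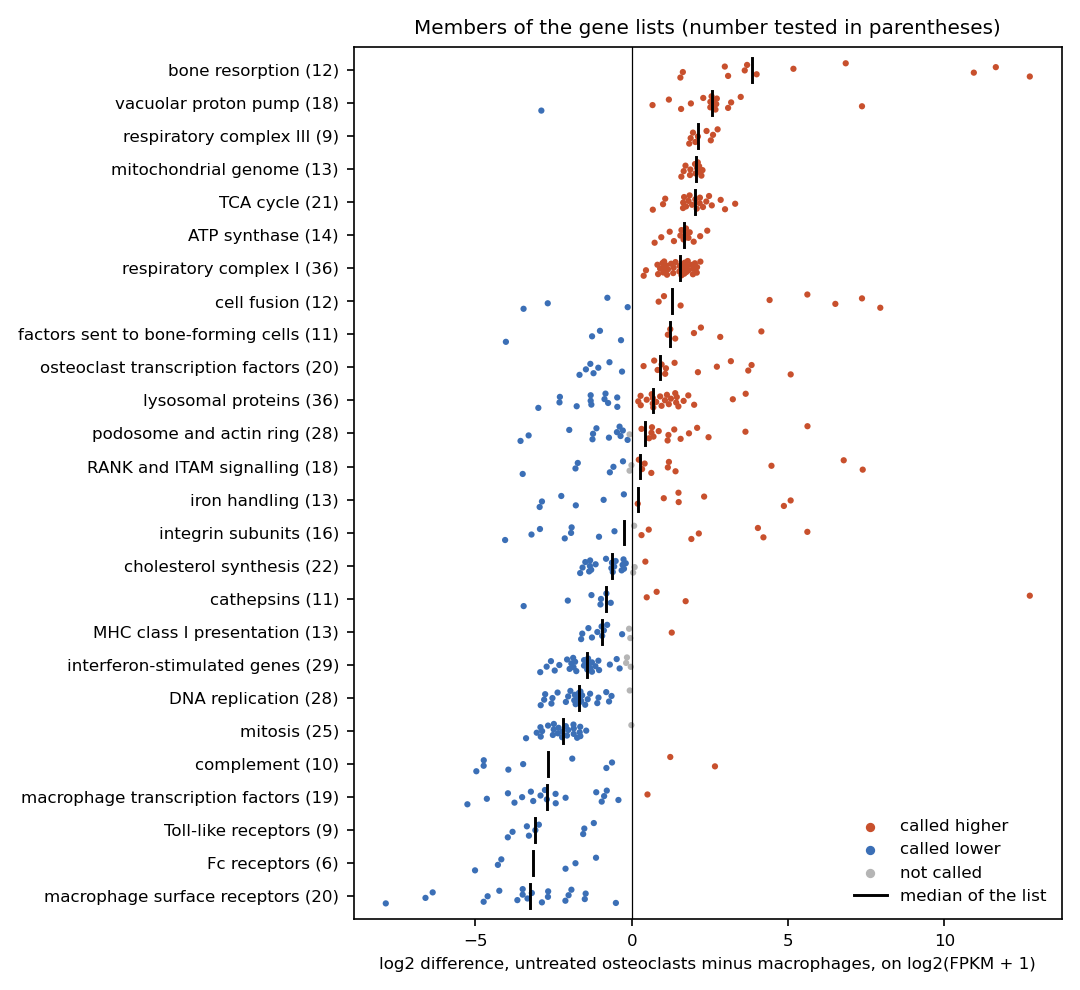
Log2 difference of each tested member of 26 gene lists, untreated osteoclasts minus untreated macrophages on log2(FPKM + 1), 1 point a gene, red called higher, blue called lower, grey not called, with a bar at the median of the list and the number tested in parentheses. The resorption, proton pump, respiratory and TCA lists lie above 0 apart from *Atp6v0a1*, the lists of macrophage receptors lie below 0, and the integrin, podosome and iron lists spread to both sides.

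In the plot of list members, the tested receptors of the macrophage surface lie below 0. All 20 surface receptors tested, of 23 listed, were called lower, with a median log2 difference of -3.26. In 5 of the 20 the osteoclast mean was under 1 FPKM, so the count describes only the genes that passed the filter. The size ranged widely, from the M-CSF receptor *Csf1r*, at 436, 444 and 442 FPKM in macrophages and 303, 311 and 316 in osteoclasts, to the more than 100-fold differences of *Fcrls* and *Mrc1*. *Adgre1*, which encodes the F4/80 antigen, was at 430, 431 and 424 FPKM against 37.0, 31.2 and 31.3. The scavenger receptors *Stab1*, *Siglec1* and *Cd36* were 28.8-fold, 32.9-fold and 19.5-fold lower. All 6 Fc receptor genes were called lower, with a median of -3.14, and 2 of the 6 were under 1 FPKM in osteoclasts. *Fcgr1*, the high-affinity IgG receptor, was at 43.0, 47.7 and 44.5 FPKM against 0.398, 0.366 and 0.523, 105-fold lower, and *Fcgr3* at 276, 269 and 249 against 14, 10.8 and 13.4. All 9 Toll-like receptor genes tested, of 12 listed, were called lower, with a median of -3.08, and 4 of the 9 were under 1 FPKM in osteoclasts. *Tlr7*, a sensor of single-stranded RNA, was 22.2-fold lower at 48.9 ± 2.38 FPKM against 2.20 ± 0.263, *Tlr13*, a sensor of bacterial ribosomal RNA, was 15.6-fold lower, and *Tlr9*, a sensor of DNA, was at 7.73, 7.80 and 8.10 FPKM against 0.0779, 0.0340 and 0.0338.

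Complement genes were called lower for 8 of 10 tested, of 14 listed, with a median of -2.69, and 1 of the 8 was under 1 FPKM in osteoclasts. The 3 chains of C1q, the recognition unit of the classical pathway, were among the most abundant macrophage transcripts and fell together. *C1qa* was at 1112, 1160 and 1073 FPKM in macrophages and 35.8, 32.7 and 35.5 in osteoclasts, 32.2-fold lower, *C1qb* 27.0-fold lower and *C1qc* 27.6-fold lower. *C5ar1*, the receptor of C5a, was 16.0-fold lower. The 2 that were higher were *Cd59a*, which protects cells from the membrane attack complex, at 6.87 ± 0.188 FPKM against 48.8 ± 0.983, and *C3*, at 2.22 ± 0.229 against 6.57 ± 0.478. Genes of MHC class I presentation were called lower for 10 of 13, with a median of -0.94, and higher for *Tap2*, a peptide transporter that overlaps an opposite-strand gene. Of 6 class II genes tested, 3 were lower and 1 higher. The higher gene was *Ifi30*, a lysosomal thiol reductase, at 88.5, 81.7 and 85.4 FPKM against 842, 874 and 856, 10.1-fold higher, also with an opposite-strand overlap.

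Of 23 chemokine receptors listed, 8 were tested, 2 were called higher, 5 lower and 1 not, and 4 of the 5 were under 1 FPKM in osteoclasts. *Ccr1* was at 12.7, 15.2 and 13.5 FPKM in macrophages and 266, 253 and 254 in osteoclasts, 18.7-fold higher, and *Ccr3* at 4.55 ± 0.0908 against 17.7 ± 0.726. *Ccr2*, the monocyte receptor, was at 2.69, 2.40 and 2.52 FPKM against 0, 0.00875 and 0.0174. Of 24 chemokine ligands tested, of 31 listed, 3 were called higher, 14 lower and 7 not, and 7 of the 14 were under 1 FPKM in osteoclasts. *Ccl9*, a ligand of CCR1, was higher, at 147, 149 and 152 FPKM against 427, 399 and 411. *Ccl2* was 9.25-fold lower, *Ccl7* 23.6-fold lower and *Cxcl14*, at 77.1, 76.8 and 77.2 FPKM against 3.86, 2.04 and 3.22, 25.4-fold lower.

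Factors by which osteoclasts are known to signal to bone-forming cells were listed as 18 genes, of which 11 were tested, 7 were called higher and 4 lower. In 3 of the 7 the macrophage mean was under 1 FPKM and in 2 of the 4 the osteoclast mean was, so that without these 5 there were 4 higher and 2 lower. *Lif*, a cytokine of the interleukin-6 family, was at 0.754, 0.489 and 0.268 FPKM in macrophages and 24.5, 25.9 and 25.9 in osteoclasts, 50.5-fold higher. *Sphk1*, which makes sphingosine 1-phosphate, was at 0.280, 0.410 and 0.339 FPKM against 8.61, 8.90 and 8.15, and overlaps an opposite-strand gene. *Efnb2*, a ligand of Eph receptors on osteoblasts, was at 0.245 ± 0.115 FPKM against 4.76 ± 0.287, and *Sema4d*, which restrains osteoblasts, at 40.4 ± 1.30 against 163 ± 6.66. *Igf1* went the other way, at 77.7, 86.0 and 88.1 FPKM in macrophages and 4.87, 3.61 and 4.24 in osteoclasts, 19.8-fold lower, and *Hgf* was 7.49-fold lower.

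Genes of DNA replication and mitosis were lower in osteoclasts with 1 exception each, and on TPM the 2 exceptions were called lower as well. Of 28 replication genes tested, 27 were called lower and none higher, with a median log2 difference of -1.68. In 9 of the 27 the osteoclast mean was under 1 FPKM. *Pcna*, the sliding clamp, was at 151, 171 and 172 FPKM in macrophages and 31.7, 31.9 and 29.3 in osteoclasts, 5.31-fold lower. *Mcm3*, a subunit of the replicative helicase, was at 27.9, 29.7 and 31.3 FPKM against 3.75, 2.32 and 3.28, 9.51-fold lower. The exception, *Cdt1*, which loads that helicase, was at 21.2, 23.1 and 23.8 FPKM against 21.6, 21.4 and 21.9 and was not called. Of 25 mitosis genes tested, 24 were called lower, with a median of -2.21, and 4 of the 24 were under 1 FPKM in osteoclasts. *Mki67*, the proliferation antigen, was at 37.6, 36.9 and 38.3 FPKM against 2.83, 2.64 and 2.65, 13.9-fold lower, *Top2a* was 10.2-fold lower and the spindle motor *Kif11* 12.9-fold lower. The separase gene *Espl1* was the exception, at 4.51 ± 0.431 FPKM against 4.46 ± 0.176, and was not called. Among G1 cyclins, *Ccnd1* was at 162, 166 and 158 FPKM in macrophages and 11.2, 8.78 and 9.58 in osteoclasts, and *Ccnd2* at 4.54, 4.71 and 4.64 against 0.0115, 0.00629 and 0.0125, with opposite-strand overlaps for both. Cell cycle inhibitors did not move as one: *Cdkn1c* was at 0.553 ± 0.0789 FPKM against 5.88 ± 0.308, *Cdkn2b* at 5.75 ± 0.601 against 15.5 ± 1.04 and *Cdkn1b* at 4.95 ± 0.651 against 9.98 ± 0.728, while *Cdkn1a* was lower, at 84.9 ± 3.56 against 27.7 ± 1.05. Of the list of 15 cyclins, inhibitors and retinoblastoma relatives, 4 were called higher, 10 lower and 1 not.

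Promoters of these cell cycle genes carry the letters of 2 known elements. The E2F site was searched as TTTCCCGC or TTTGGCGC and the CHR element of mitosis genes as TTTGAA, each on both strands. An E2F site was found in 9 of 22 promoters of replication genes (40.9%), 3.33% of all 8442 promoters and 3.84% of promoters of genes called lower. The CHR letters were found in 15 of 20 promoters of mitosis genes (75%), 12.1% of all promoters and 12.9% of those of genes called lower. Windows from 4 of the genes are shown with the sites in capitals, on the strand of the gene: *Mcm5* (chr8:75109336-75109391, + strand) and *Mcm6* (chr1:128359721-128359839, - strand, with 2 sites) for E2F, and *Mki67* (chr7:135716448-135716519, - strand, with 2 sites) and *Kif11* (chr19:37376339-37376381, + strand) for CHR.
Mcm5: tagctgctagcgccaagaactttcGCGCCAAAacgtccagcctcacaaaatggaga
Mcm6: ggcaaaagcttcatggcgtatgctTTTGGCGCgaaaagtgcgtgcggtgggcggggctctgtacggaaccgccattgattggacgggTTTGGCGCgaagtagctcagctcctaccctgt
Mki67: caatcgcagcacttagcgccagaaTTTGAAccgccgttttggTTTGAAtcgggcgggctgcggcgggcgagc
Kif11: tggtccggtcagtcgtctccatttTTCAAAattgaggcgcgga
*Mcm5* was at 28.9 ± 1.53 FPKM in macrophages and 3.39 ± 0.345 in osteoclasts, and *Mcm6* at 47.6 ± 4.47 against 14.5 ± 0.576.

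Genes of the respiratory chain that were tested were all higher. All 75 nuclear genes tested of complexes I to V were called higher, with a median log2 difference of 1.68 and a range from 0.38 to 2.75. Of 16 complex IV genes listed, 12 were tested, *Atp5pb* of complex V was not matched, and 1 complex I gene was under 1 FPKM in macrophages. Summed, they rose from 3114 ± 80.6 FPKM in macrophages to 10569.5 ± 248 in osteoclasts (SD, n = 3). *Cyc1*, cytochrome c1 of complex III, was at 24.9, 27.8 and 26.0 FPKM against 176, 188 and 180, 6.93-fold higher, the largest difference among the 75. *Sdha*, the flavoprotein of complex II, was at 47.1, 48.3 and 46.5 FPKM against 242, 258 and 254. *Ndufv1*, of complex I, was 4.84-fold higher, and *Atp5b*, the catalytic beta subunit of ATP synthase, 4.59-fold higher. By complex, the medians were 1.53 for complex I, 2.00 for complex II, 2.12 for complex III, 1.63 for complex IV and 1.69 for complex V. All 13 messages of the mitochondrial genome were called higher too, with a median of 2.04, and 1 of them was under 1 FPKM in macrophages. *mt-Co1* was at 3498, 3723 and 3782 FPKM in macrophages and 15742, 14668 and 14878 in osteoclasts, and overlaps an opposite-strand gene. On TPM all 13 and all but 2 of the 36 complex I genes were still called higher.

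Enzymes of the tricarboxylic acid cycle and pyruvate entry were called higher for 21 of 21 genes, with a median log2 difference of 2.03. *Mdh2*, mitochondrial malate dehydrogenase, was at 29.7, 33.7 and 33.6 FPKM in macrophages and 319, 333 and 335 in osteoclasts, 10.2-fold higher (log2 difference 3.31, SE 0.06). *Pdhb*, of pyruvate dehydrogenase, was at 13.1, 13.3 and 12.8 FPKM against 101, 101 and 99.7, 7.66-fold higher, and citrate synthase, *Cs*, was 6.08-fold higher. Regulators of mitochondrial gene expression did not share this direction: of 11 tested, 5 were higher, 5 lower and 1 not called, with a median of 0.12. *Esrra*, a partner of PGC-1 coactivators that overlaps other genes on both strands, was at 13.9 ± 0.277 FPKM against 37.7 ± 3.81. *Polg*, the mitochondrial DNA polymerase, overlapping an opposite-strand gene, was lower at 7.21 ± 0.485 FPKM against 3.34 ± 0.146. *Tfam*, which packs mitochondrial DNA, was at 4.93, 5.15 and 5.48 FPKM against 6.69, 5.48 and 5.08 and was not called, except as lower on TPM. The gene *Nrf1* was lower, at 2.96 ± 0.0867 against 1.93 ± 0.0553. The letters of the NRF-1 site, GCGCATGC on both strands, were found in 10 of 63 promoters of complexes I to V (15.9%), 5.94% of all promoters and 6.86% of those of genes called higher.

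Glycolytic genes were called higher for 14 of 24, lower for 6 and not called for 4, with a median log2 difference of 0.50, and on TPM for 12 higher and 10 lower. *Ldhb*, the lactate dehydrogenase subunit of oxidative tissues, was at 4.62, 4.17 and 4.46 FPKM in macrophages and 85.9, 87.1 and 90.2 in osteoclasts, 19.9-fold higher. *Ldha*, the subunit of glycolytic tissues, was at 110 ± 2.72 FPKM against 263 ± 3.14, 2.39-fold higher, and remained the more abundant of the pair per length. The myeloid hexokinase *Hk3*, with an opposite-strand overlap, was at 69.5, 71.7 and 70.1 FPKM against 9.37, 8.52 and 9.04, 7.85-fold lower. The glucose carrier *Slc2a3* was at 2.96 ± 0.226 FPKM against 0.116 ± 0.0298, while the common carrier *Slc2a1* was not called, at 12.5 ± 0.283 against 12.8 ± 0.541, and was called lower on TPM. In the serine pathway, *Psat1* was at 12.2, 11.0 and 11.2 FPKM against 2.03, 1.66 and 1.55 and *Phgdh*, the first enzyme, at 1.93 ± 0.274 against 0.197 ± 0.0825, and 2 of the 9 genes tested were higher, 3 lower and 4 not called. On TPM, 2 were higher and 5 lower, and after quantile scaling 4 higher and 4 lower.

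Cholesterol synthesis genes were called lower for 19 of 22, with a median log2 difference of -0.62, less than for most lists here. *Hsd17b7* was 3.46-fold lower and *Sqle*, squalene epoxidase, 2.32-fold lower. *Nsdhl* was called higher, by 0.44, a call lost on TPM. Export genes were lower for 8 of 10, with a median of -0.48. *Apoe*, the apolipoprotein that macrophages secrete, was at 1726, 1717 and 1573 FPKM against 64.4, 75.5 and 68.2, 24.1-fold lower. Of the exporters, *Abca1* was at 23.6 ± 0.820 FPKM against 5.33 ± 0.208 and *Abcg1* at 1.72 ± 0.122 against 4.53 ± 0.0591, in opposite directions.

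Iron genes showed no common direction. Of 13 tested, 7 were called higher and 6 lower, with a median log2 difference of 0.19. *Tfrc* (chr16:32608920-32632794, + strand), the transferrin receptor that brings iron in, was at 28.5, 31.9 and 30.5 FPKM in macrophages and 1066, 1049 and 1059 in osteoclasts, 34.9-fold higher (log2 difference 5.08, SE 0.04). *Steap4*, a metalloreductase, was at 0.0273, 0 and 0 FPKM against 27.9, 28.0 and 29.4, and *Slc11a2*, the carrier that moves iron out of endosomes, with an opposite-strand overlap, at 8.87 ± 0.264 against 48.1 ± 2.00. *Ncoa4*, which delivers ferritin to the lysosome so that its iron is released, was at 9.85 ± 0.323 FPKM against 29.6 ± 0.686. Among the 6 that were lower, *Hmox1*, which breaks down haem, was at 565, 551 and 553 FPKM against 79.5, 70.8 and 75.6, 7.39-fold lower. The exporter ferroportin, *Slc40a1*, was at 8.80 ± 0.642 FPKM against 1.06 ± 0.153, the phagosomal carrier *Slc11a1* was 8.10-fold lower and the storage subunit *Fth1* 1.87-fold lower. Among zinc genes, 9 of 15 were higher, 5 lower and 1 not called, with the importer *Slc39a1* at 52.7 ± 2.04 FPKM against 275 ± 2.78 and *Mt1*, a metallothionein of most tissues, at 92.6 ± 1.91 against 197 ± 3.19.

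Redox genes gave 7 higher, 10 lower and 1 not called of 18. Subunits of the phagocyte NADPH oxidase went both ways. The membrane subunit *Cybb* was lower, at 95.4, 99.2 and 100 FPKM against 18.3, 14.2 and 15.1, and so was the cytosolic subunit *Ncf1*, at 96.7 ± 1.62 against 9.54 ± 0.906, with an opposite-strand overlap. The other membrane subunit, *Cyba*, was higher, at 284, 290 and 282 FPKM against 421, 452 and 423. *Cat*, catalase, was 2.97-fold lower. *Sod2*, the mitochondrial superoxide dismutase, was higher, at 7.84 ± 0.272 FPKM against 21.6 ± 0.571.

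Interferon-stimulated genes were called lower for 26 of 29 and higher for none, with a median log2 difference of -1.42. In 15 of the 26 the osteoclast mean was under 1 FPKM, so that they could pass the filter through the macrophages. In the other 11 it was 1 FPKM or more. *Bst2*, tetherin, was at 292, 314 and 284 FPKM in macrophages and 41.1, 39.6 and 34.1 in osteoclasts, 7.75-fold lower. *Oas1a*, a sensor of double-stranded RNA, was at 25.4, 27.0 and 26.3 FPKM against 4.23, 4.27 and 4.96. *Isg15*, a ubiquitin-like modifier, was at 9.53, 9.51 and 9.56 FPKM against 1.29, 1.25 and 2.65, with the third osteoclast library the highest of the osteoclasts. The interferon-stimulated response element was searched as GAAANNGAA on both strands and was found in 15 of 21 promoters of the list (71.4%), 7.53% of all promoters and 8.26% of those of genes called lower. Windows from *Isg15* (chr4:156200852-156200920, - strand), *Oas1a* (chr5:120907526-120907569, - strand) and *Ifit1* (chr19:34640756-34640837, + strand) show how closely the matches, in capitals, sit and overlap.
Isg15: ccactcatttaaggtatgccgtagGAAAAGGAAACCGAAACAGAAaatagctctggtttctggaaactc
Oas1a: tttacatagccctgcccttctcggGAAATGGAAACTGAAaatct
Ifit1: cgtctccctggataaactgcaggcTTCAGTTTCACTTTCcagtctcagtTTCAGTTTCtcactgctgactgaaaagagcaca

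Stress response genes were called higher for 11 of 15, lower for 3 and not called for 1, with a median of 0.58. *Asns*, asparagine synthetase, was at 4.14 ± 0.316 FPKM in macrophages and 15.6 ± 0.462 in osteoclasts, and *Atf4*, the factor that drives it, at 47.2 ± 0.403 against 86.0 ± 1.38. *Ppp1r15a*, which ends the block on translation, was at 2.64, 1.81 and 1.79 FPKM against 17.2, 17.2 and 17.8, with an opposite-strand overlap. Inflammatory mediators without LPS gave 2 higher, 7 lower and 7 not called of 16. *Tnf* was at 57.3, 56.4 and 50.9 FPKM in macrophages and 6.68, 7.51 and 8.83 in osteoclasts, 7.15-fold lower. *Nlrp3*, the inflammasome sensor, was at 24.6, 21.4 and 20.9 FPKM against 0.895, 0.642 and 0.827, 28.4-fold lower. *Il1rn*, the interleukin-1 receptor antagonist, was higher, at 1.33, 1.28 and 1.69 FPKM against 15.9, 15.8 and 16.3.

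**Figure D4:**
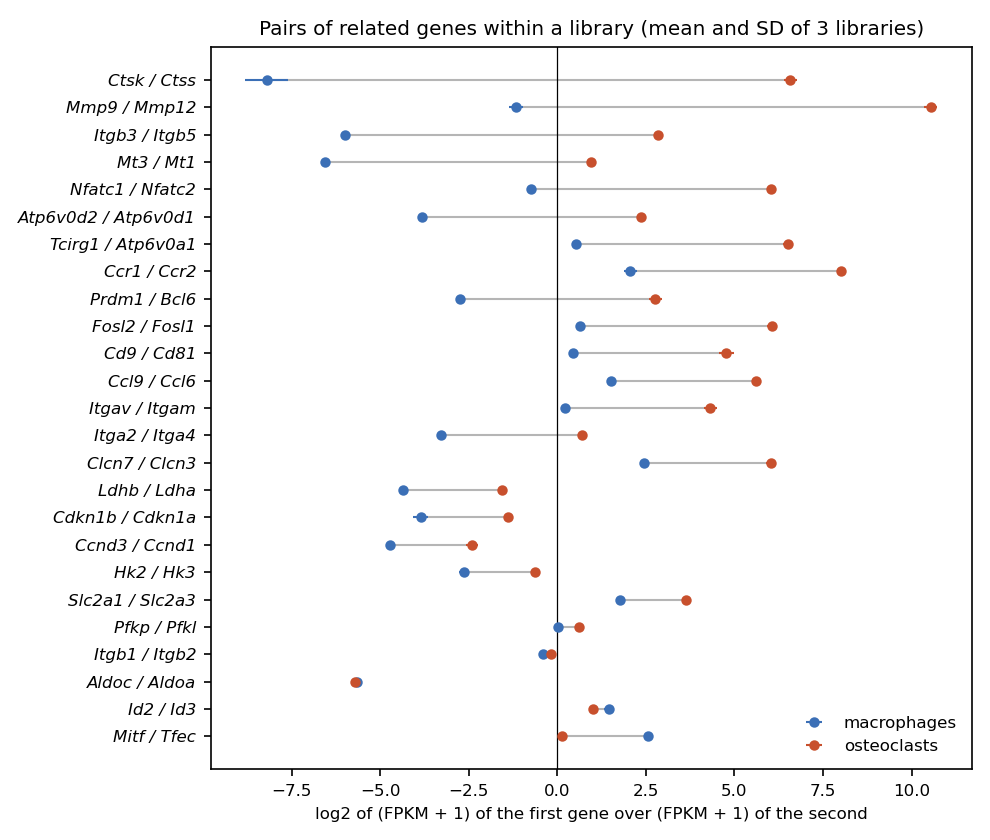
For 25 pairs of related genes in which both were tested, of 30 listed, log2 of (FPKM + 1) of the first gene over (FPKM + 1) of the second within a library, mean and SD of 3 untreated macrophage libraries (blue) and 3 untreated osteoclast libraries (red). Pairs whose 2 points lie on opposite sides of 0, such as *Itgb3* / *Itgb5* and *Atp6v0d2* / *Atp6v0d1*, exchanged the more abundant member. For a gene without reads, such as *Mt3* in macrophages, the added 1 FPKM sets the point.

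A ratio of 2 related genes compares values from the same library, so that library scaling bears on it little. The plot of paired genes shows 8 pairs in which the more abundant member, per length, was exchanged. *Itgb3* over *Itgb5* went from -5.99 ± 0.07 log2 units in macrophages to 2.83 ± 0.10 in osteoclasts (SD, n = 3). *Atp6v0d2* over *Atp6v0d1* went from -3.82 ± 0.05 to 2.35 ± 0.06, and *Mt3*, without a read in macrophages, was 0.96 ± 0.02 above *Mt1* in osteoclasts. *Nfatc1* over *Nfatc2* went from -0.74 ± 0.09 to 6.04 ± 0.12. *Nfatc1* was higher (log2 difference 3.83) and *Nfatc2* lower (-2.95), the latter at 12.5 ± 0.677 FPKM against 0.742 ± 0.140. *Prdm1* over *Bcl6*, 2 repressors, went from -2.73 ± 0.09 to 2.77 ± 0.19. The others were *Ctsk* over *Ctss*, *Mmp9* over *Mmp12* and *Itga2* over *Itga4*. In *Aldoc* over *Aldoa*, 2 aldolases, both genes rose and the ratio was -5.64 ± 0.03 and -5.70 ± 0.08. *Aldoa* overlaps an opposite-strand gene, and a second entry under its symbol, called lower, is not counted in the list or the pair.

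The same difference between cell types was measured a second time in the 6 libraries given LPS for 3 h, which share no library with the untreated comparison, although all 12 libraries shared 1 estimate of the spread. With LPS, 83.9% of genes were called. Of 7883 genes called in both comparisons, 6956 had the same direction. Among the lists, the 12 resorption genes, the 75 respiratory genes, the 21 TCA genes and the 13 mitochondrial messages were all called higher with LPS as well, and all 9 Toll-like receptors and all 6 Fc receptors lower. Other lists changed: cholesterol synthesis had 9 higher and 8 lower calls with LPS, and all 29 interferon-stimulated genes were called lower, with a median of -3.72.

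**Figure D5:**
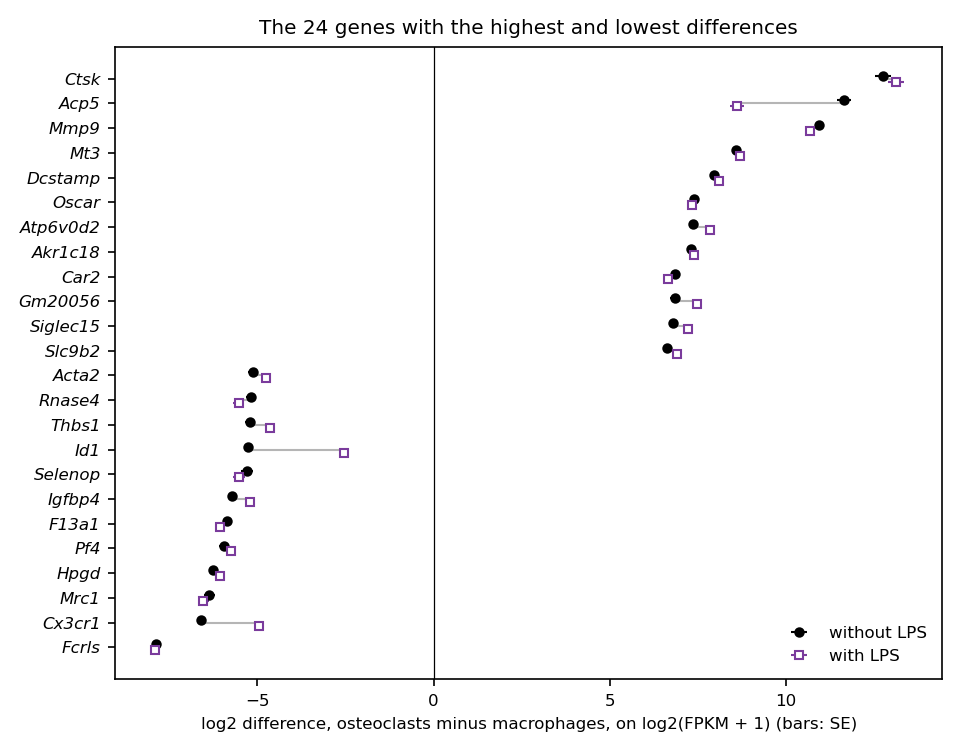
Log2 difference of osteoclasts minus macrophages on log2(FPKM + 1) for the 12 highest and 12 lowest genes of the untreated comparison, without LPS (filled circles) and with LPS (open squares), with the SE of limma as bars. All 24 genes kept their direction with LPS, and *Acp5*, *Cx3cr1* and *Id1* moved most.

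A test of the difference between the 2 comparisons, the interaction term of the same fit, called 56.6% of all genes. Of the 24 genes with the highest and lowest differences, 10 were called, and the plot of these genes shows that none changed direction. *Acp5* was 11.64 (SE 0.19) higher without LPS and 8.60 with it, an interaction of -3.04 (limma adjusted p = 1.6e-06). *Id1* was -5.25 without LPS and -2.55 with it. Within the lists, several genes did not keep their difference. *Jdp2* went from 5.08 to 0.86, *Src* from 5.62 to 1.41, *Mmp14* from 5.17 to 1.56 and *Prdm1* from 2.72 to -0.03. *Lyl1* went from -4.63 to -0.59. *Itgb3*, *Dcstamp*, *Ocstamp*, *Tfrc* and *Ckb*, in contrast, each differed by no more than 0.23 between the comparisons, and of these 5 the interaction was called for *Itgb3* (0.23, adjusted p = 0.044).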

How the data were processed

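The series holds 12 RNA libraries of cultured mouse macrophages and osteoclasts. The authors deposited 1 table of FPKM values, and the submitters' processing notes name fastp, STAR, featureCounts, DESeq2 and the mouse build mm10. Versions, settings and use of strand are not given in the sources used here. The low values step in whole reads, which recovered the reads behind 99.7% of the 25854 genes above 0 (within 0.02 of a whole number). The denominators of the FPKM values match median-ratio size factors, inferred from the values, so a typical gene is set equal between libraries. Replicates differed beyond counting noise and were each counted, which does not show that they came from separate cultures. The labels name no batch.

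Testing covered genes that reached 1 FPKM in 3 or more libraries and used limma 3.58.1 (R 4.3.3) on log2(FPKM + 1), with 4 group means, trend in eBayes, two-sided, Benjamini-Hochberg adjusted. The text names genes from among the 12 highest and 12 lowest differences (called, groups not overlapping, untreated mean 1 FPKM or more). It also draws on the 10 most abundant genes of each group, and on the defining genes and largest differences of each list. Not every gene that met these rules is named. Members and lists were chosen with earlier results of these data known. Positions are from GENCODE vM21 (GRCm38) and promoters from RefSeq (GRCm38.p6), matched by symbol for 8442 of the 11335 genes tested.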

Additional observations from a re-analysis of the deposited data

Results flagged for a closer look

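Results are given here where the difference between cell types itself differed with LPS by the interaction term of the limma fit (difference with LPS minus difference without it, on log2(FPKM + 1), adjusted over all genes). Of the 207 tested genes named in the text, 123 had a called interaction, against 56.6% of all genes. Values follow for the genes among the 24 highest and lowest and for the 14 named genes called in opposite directions without and with LPS. No explanation was weighed for any of them.

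Among the highest, the interaction was -3.04 for *Acp5* (opposite-strand overlap), 0.47 for *Atp6v0d2*, 0.63 for *Gm20056*, 0.42 for *Siglec15* and 0.28 for *Slc9b2*. Among the lowest it was 1.65 for *Cx3cr1*, 2.70 for *Id1*, 0.51 for *Igfbp4*, 0.56 for *Thbs1* and -0.22 for *F13a1*. Each of these 10 kept its direction.

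Higher in osteoclasts without LPS and lower with it were *Il1rn*, at 2.81 and -2.44 (interaction -5.25), *Ppp1r15a*, at 2.59 and -0.90 (-3.49), and *Sod2*, at 1.35 and -1.79 (-3.14). *Tfec* went from 2.12 to -0.48 (-2.59) and *C3* from 1.23 to -0.91 (-2.15). The chemokine receptor *Ccr3* went from 1.75 to -0.14 (-1.89) and the chemokine *Ccl9* from 1.46 to -0.24 (-1.70). *Tap2* went from 1.28 to -0.21 (-1.49), *Mt1* from 1.08 to -0.40 (-1.48), *Cd44* from 1.03 to -0.40 (-1.44) and *Tnfrsf11a*, the RANK gene, from 0.63 to -0.31 (-0.94). The other direction was taken by *Myc*, from -1.22 to 2.08 (3.31), *Tfeb*, from -1.07 to 1.15 (2.22), and *Sqle*, from -1.15 to 0.15 (1.31).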

How the results depend on the processing

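The count of 8822 called genes was 8797 with a pseudocount of 0.1, 8901 after quantile scaling, 9217 on TPM, 8968 from the 6 untreated libraries alone, 8944 by voom on the recovered reads and 10915 with no filter (25854 genes tested). Leaving out each untreated library gave 8495 to 8566 called genes, 4230 to 4277 higher and 4254 to 4293 lower, and with a difference of at least 1, 1495 to 1526 higher and 1606 to 1634 lower. TPM moved the median of all genes by -0.38: it called 2760 genes higher instead of 4401, and 2865 lower by at least 1 instead of 1620. Of 2691 values of the 207 named genes under these alternatives, 2671 kept direction and side of the threshold. Of 11 that changed sign, 2 were of the called gene *Itgb2*, at -0.10 on TPM and -0.030 after quantile scaling, both not called. The others were of genes not called: on TPM *Itga4* at -0.32, *Slc2a1* at -0.38 and *Tfam* at -0.26, after quantile scaling *Slc2a1* at -0.024 and *Espl1* at 0.076, and with 1 library left out *Espl1* (-0.045 to 0.053) and *Tyrobp* (-0.029 to 0.019). The cause was not tested. Of 1066 list counts, 6 moved by more than 1.5 times: on TPM 10 glycolytic genes were lower instead of 6, 5 serine genes lower instead of 3, 1 cholesterol export gene higher instead of 2, and no cholesterol synthesis gene or macrophage transcription factor higher instead of 1 each, and after quantile scaling 4 serine genes were higher instead of 2. A fit with the replicate number as a block called 8787 genes. Same-numbered untreated libraries of the 2 cell types had correlations of -0.0098, -0.0048 and -0.0263 in their deviations from the group means, and the block ended no call of a named gene. With 3 libraries a group, these values cannot show whether same-numbered libraries shared mice or cultures. With LPS, 9418 to 9530 genes were called under the alternatives against 9509, and the interaction 6094 to 8747 against 6413. With 3 reads as the floor, genes without a read in a group have only a lower bound on their fold.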

Other observations

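Some gene families outside the lists were counted by symbol. They were chosen after their values were seen, so their counts are a description. Mitochondrial ribosomal proteins, which translate the messages of the mitochondrial genome, were called higher in osteoclasts for 74 of 77 genes tested, with a median log2 difference of 0.79 (0.44 on TPM). *Mrpl41* was at 15.9, 14.1 and 16.0 FPKM in macrophages and 71.7, 79.6 and 72.0 in osteoclasts, 4.85-fold higher. Proteins that import other proteins into mitochondria were higher for 19 of 22 genes, with *Timm44* at 8.28 ± 0.274 FPKM against 26.4 ± 0.683 (SD, n = 3). Enzymes of coenzyme Q synthesis were higher for 9 of 11, with a median of 1.57 and *Coq5* at 5.03 ± 0.593 FPKM against 20.9 ± 1.29. Cytosolic ribosomal proteins, by comparison, were higher for 43 of 79 with a median of 0.20, which became -0.21 on TPM.

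Of 19 clustered histone genes tested, 17 were called higher, 1 lower and 1 not. In 12 of the 17 the macrophage mean was under 1 FPKM, so that they could pass the filter on low values through the osteoclast libraries, and their count supports nothing. The other 5 were at 1 FPKM or more in macrophages. *Hist1h2bc* was at 13.4, 10.5 and 10.8 FPKM in macrophages and 118, 126 and 121 in osteoclasts, 10.5-fold higher. *Hist2h2be* was at 2.60, 2.14 and 2.14 FPKM against 35.1, 35.6 and 32.8, 15-fold higher. *Hist1h1c*, a linker histone, was at 37.7 ± 3.78 FPKM against 141 ± 7.69. Of 10 unclustered histone genes, 2 were called higher, 5 lower and 3 not, with a median of -0.27 (-0.73 on TPM). The most strongly lower were *H2afv*, at 20 ± 2.75 FPKM against 3.41 ± 0.258, and *H2afx*, with an opposite-strand overlap, at 33.4 ± 0.740 against 5.61 ± 0.500. The labels do not say whether libraries were made from polyadenylated RNA, and whether the histone messages carried poly(A) tails was not tested.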
